A study of Anopheles gambiae with 16 samples.

Results

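The 265 probe sets described here are those of the malaria mosquito Anopheles gambiae that measured far higher in carcasses than in heads and circulating hemocytes of the same kind of females. They were taken from the 16884 probe sets whose IDs start with Ag., by the arrays labelled after 2 rounds of amplification. A probe set was included where its mean level over the 4 carcass arrays, on the scale log2(intensity + 16), was at least 2 above the mean of the 4 hemocyte arrays and at least 2 above the mean of the 4 head arrays, and where its lowest carcass array lay above its highest array among the 8 of hemocytes and heads. The rule took 1.57% of the Ag. probe sets, and 4.16% met its condition of no overlap alone. The levels in carcasses, hemocytes and heads that chose these probe sets are therefore given as a description, with no test.

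The study covered 4 groups of 4 arrays, titled as biological replicates within each group. Per the labels they came from naive adult females of the G3 strain, aged 1 to 2 days after eclosion. Carcass RNA was labelled by 2 amplification rounds, starting from 80 ng, and also by 1 round, starting from 1000 ng, while RNA of hemocytes and heads was labelled by 2 rounds from 80 ng. A carcass is what remained of the body after hemolymph collection and removal of the head, pooled from 20 females. Heads were pooled from 40 females per the treatment note. For hemocytes the labels give 1000 females in one field and 500 in another, which also calls the females infected. Hemolymph went straight into a column buffer, whereas carcasses and heads went through Trizol first, so differences between hemocytes and the other tissues cannot be told apart from differences in how RNA was extracted. For head replicate 4 the source name mentions carcasses and 20 females while the title says heads, and the array was kept among the heads.

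The carcass of a mosquito holds the thorax and the abdomen, and with them the flight muscle, salivary glands, gut, Malpighian tubules, ovaries, cuticle and fat body. The fat body is the main metabolic and storage organ of insects and makes many of the proteins of the hemolymph, while the gut of an adult female makes the enzymes that digest blood and sugar meals. A transcript made in any of these organs can appear as carcass-enriched here, and in such a bulk sample fewer cells of a type cannot be told apart from less RNA per cell. The files do not pair probe set IDs with genes, and 0 of the 265 IDs matched the gene table of 15165 RefSeq genes (assembly idAnoGambNW_F1_1), so the probe sets are called by their IDs, no gene or function is named, and the carcass, hemocyte and head labels could not be checked against marker genes. An ID gives a chromosome arm (UNKN where it gives none), a cluster number, a part number, and the mark CDS, the mark UTR or no mark.

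Some arrays stood apart before any comparison. Carcass replicate 3 was the lowest of the 4 two-round carcass arrays for 169 of the 265 carcass-enriched probe sets (63.8%), against 32.6% of all Ag. probe sets. Among the 5028 Ag. probe sets at least as bright in two-round carcasses as the dimmest of the 265, that share was 38.5%. Among one-round carcasses, replicate 3 was the highest array for 54.1% of all Ag. probe sets and 77% of the 5028. For the carcass-enriched ones, however, it was the highest at 34%. Head replicate 4 measured at least 2-fold above the mean of the other head arrays, on the log2(intensity + 16) scale, at 28 of the 265 (10.6%), whereas replicates 1, 2 and 3 did so at 6, 5 and 1. Over all Ag. probe sets the share for head replicate 4 was 1.53%, and over the 5028 it was 2.94%. Its conflicting source name is noted above, and the part that this plays in these values was not tested. Without head replicate 4 the rule found 269 probe sets, of which 259 were among the 265.

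The enrichment in carcasses was large. The median level of the 265 probe sets on the log2(intensity + 16) scale was 8.99 in two-round carcasses, against 4.60 in hemocytes and 4.80 in heads, where the median of all Ag. probe sets was 5.24, 5.14 and 5.29. Together they made up 6.99% to 8.83% of the summed Ag. intensity of a two-round carcass array and 7.5% to 9.74% of a one-round carcass array, against 0.109% to 0.154% of a hemocyte array and 0.311% to 0.62% of a head array, the highest of these being head replicate 4. The smaller of the differences from hemocytes and from heads, called the margin here, had a median of 3.63 and a maximum of 8.16 on the log2 scale. It was at least 4 for 107 probe sets, at least 6 for 27 and at least 7 for 9.

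**Figure D1:**
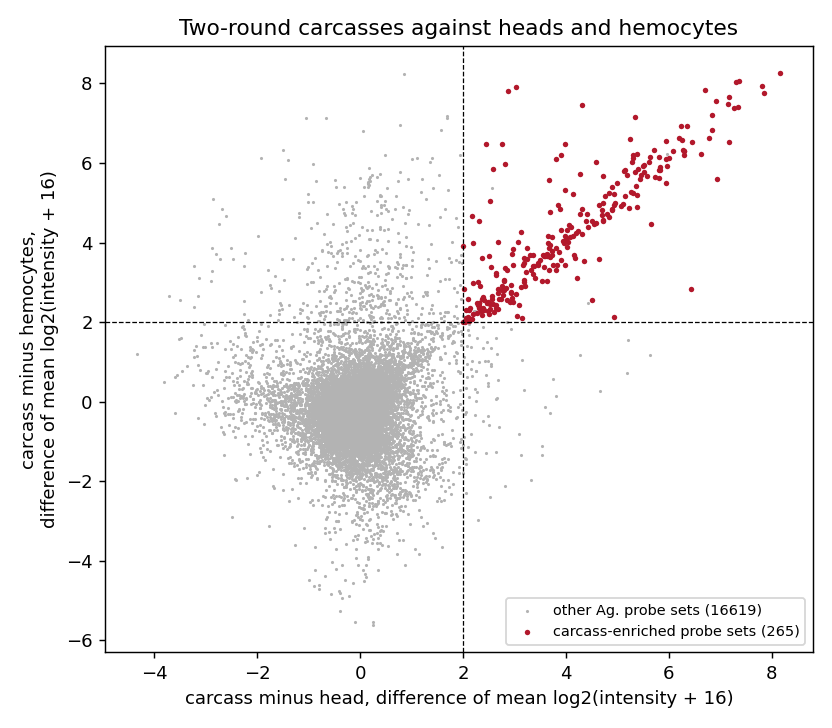
Each point is an Ag. probe set, placed by its two-round carcass mean minus the head mean (horizontal) and minus the hemocyte mean (vertical), both as differences of mean log2(intensity + 16). The 265 carcass-enriched probe sets (red) lie above 2 on both axes (dashed lines) and reach 8.16 and 8.25.

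Ag.3R.157.14_a_at had the largest margin. It measured 9412, 8879, 4232 and 4764 intensity units on two-round carcass arrays 1 to 4, against 3.125, 1.28, 6.161 and 11.22 on the hemocyte arrays and 1.835, 15.72, 1.689 and 9.126 on the head arrays. Every carcass array thus lay far above all 8 others. On one-round carcass arrays it measured 6031, 5959, 3095 and 2401, with replicates 1 and 2 above replicates 3 and 4 in both labellings.

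Ag.3R.219.0_CDS_at came next, with 3804, 5476, 3045 and 4461 units in two-round carcasses, against 1.312, 0.5776, 0.5579 and 0.5321 in hemocytes and 6.917, 1.241, 0.5762 and 0.9812 in heads. It lay below background on all arrays of both other tissues, where background is the 95th percentile of the parasite (Pf.) probe sets of the same array, between 8.83 and 15.28 units. Taken against the higher of background and measured value, it was at least 320-fold higher in carcasses than in hemocytes and at least 305-fold higher than in heads. One-round carcasses measured 5784, 6120, 5330 and 5675 units.

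Of the 265, 58 (21.9%) were below background on all 8 hemocyte and head arrays, 100 (37.7%) on all 4 hemocyte arrays and 81 (30.6%) on all 4 head arrays. In contrast, 37 (14%) were above background on all 8, so that carcasses were higher there but not alone in giving signal. The count of 58 rose to 105 with background at the 99th percentile. It rose to between 60 and 67 when any single head or hemocyte array was left out, the most without head replicate 4. A higher background or fewer arrays can only keep or raise this count. In carcasses 264 exceeded background on every two-round array and 262 on every one-round array, and all 265 passed a filter of signal above background on at least 4 of the 16 arrays, which carcass arrays alone could satisfy.

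**Figure D2:**
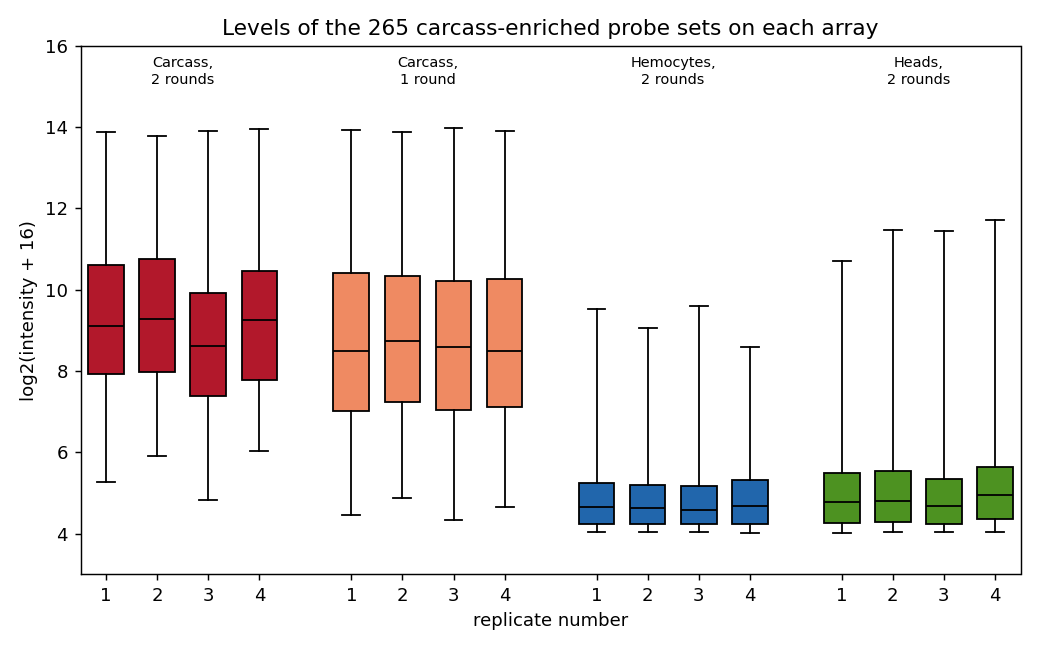
Boxes show the levels of the 265 carcass-enriched probe sets on each array as log2(intensity + 16), with the median as a line, the quartiles as box ends and the lowest and highest value as whiskers. Two-round carcass replicate 3 has the lowest box of its group, and the hemocyte and head boxes lie near the bottom of the scale.

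Intensities of different probe sets do not rank transcripts, since each probe set binds with its own strength, but they show where signal nears the top of the scale. The highest two-round carcass intensity was at Ag.3L.113.0_CDS_at, with 15130, 14110, 15297 and 15779 units in carcasses, against 63.3, 91.02, 169.6 and 61.94 in hemocytes and 94.66, 220.2, 199.5 and 3327 in heads. Head replicate 4 stood far above the other heads here. In one-round carcasses the values were 15540, 15122, 16024 and 15472, hardly apart from the two-round ones. In all, 90 of the 265 averaged over 1000 units in two-round carcasses, while 2 did so in heads and 0 in hemocytes.

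At the threshold itself the rule drew a line through a continuum. Just inside it were Ag.3L.918.0_CDS_at, with a margin of 2.00 and means of 70.42 ± 8.03 units in two-round carcasses, 6.236 ± 6.75 in hemocytes and 6.224 ± 7.34 in heads (SD, n = 4 each), and Ag.2L.487.0_CDS_at, with a margin of 2.00 and means of 742 ± 412, 29.71 ± 10.5 and 152.9 ± 14.5. Just outside it, with no overlap between arrays but margins of 1.98 and 1.97, were Ag.3R.9.0_CDS_at and Ag.3R.52.0_CDS_at. Ag.3R.9.0_CDS_at measured 474.9 ± 151 units in two-round carcasses, 27.44 ± 11 in hemocytes and 140.6 ± 136 in heads. Ag.3R.52.0_CDS_at measured 233.3 ± 121, 20.27 ± 7.78 and 38.92 ± 9.56.

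The carcass-enriched probe sets were spread over every arm of the genome. Arm 2R held 72 of them (27.2%), 3R 62 (23.4%), 2L 58 (21.9%), 3L 42 (15.8%) and X 21 (7.92%), and 10 had no arm (3.77%). Among all Ag. probe sets the shares were 26.3%, 18.8%, 20.3%, 14.8%, 8.31% and 11.5%. Among the 5028 Ag. probe sets at least as bright in two-round carcasses as the dimmest of the 265 they were 30%, 20.8%, 22.3%, 15.1%, 7.4% and 4.46%. The lower share of unplaced probe sets was thus close to that among the 5028. These shares were not tested.

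By their marks, 217 of the 265 (81.9%) were CDS, 15 (5.66%) were UTR and 33 (12.5%) had no mark. The 5028 bright probe sets held 70.2%, 11.7% and 18.2%, and all Ag. probe sets 83.3%, 4.68% and 12%. In the array maker's naming, the suffix s or x marks probes that can bind transcripts of more than a single gene. Of the 265, 37 carried such a suffix (14%), against 10.9% of the 5028 and 8.21% of all Ag. probe sets, and the transcript behind their signal is uncertain.

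The 265 fell into 248 clusters of the array's numbering, and 198 of them were alone in their cluster. The other 67 belonged to 50 clusters that also hold further Ag. probe sets, and in 14 of these clusters every probe set met the rule. The 48 cluster mates that did not meet it had margins from -0.95 upwards with a median of 0.99, all under 2, and 34 of the 48 were above background on all 4 two-round carcass arrays. The margin is the smaller of 2 differences, and some mates were far above 1 of the tissues, such as Ag.2R.274.0_UTR_a_at, chosen after its values were seen, which was 6.94 above hemocytes and 0.77 above heads on the log2 scale. Probe sets of a cluster share an arm and a cluster number in their IDs and cannot be taken as independent. Whether they share a locus is not given by the files.

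Cluster 2L.32 had 3 such probe sets, the largest number, and no others. Ag.2L.32.0_CDS_a_at measured 622.3, 458.7, 339.9 and 284.2 units in two-round carcasses and 1538, 1578, 1328 and 922.4 in one-round carcasses. Ag.2L.32.1_CDS_a_at ran close to it, with 608.1, 459.9, 318.2 and 286 after 2 rounds and 1614, 1609, 1466 and 942.5 after 1 round. In hemocytes and heads both were below background on every array. They were at least 31.8-fold and 31.2-fold higher in two-round carcasses than in hemocytes, and at least 30.3-fold and 29.7-fold higher than in heads. Ag.2L.32.0_CDS_s_at, whose suffix marks possible binding to other genes, measured 891, 768.3, 537.9 and 908 units after 2 rounds and 1362, 1056, 1088 and 1190 after 1 round. All 3 had margins between 4.47 and 4.77.

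The one-round carcass arrays were not used by the rule and are read beside it. The labels do not say whether carcass arrays with the same number in the 2 labellings came from the same pool, and their deviations went together, as given further on, so whether they are separate animals cannot be told. The median level of the 265 was 8.67 in one-round carcasses, with differences of 3.63 from hemocytes and 3.255 from heads, where the two-round differences were 4.00 and 3.80. The lowest one-round array lay above the highest of the 8 hemocyte and head arrays for 251 of the 265, against 5.85% of all Ag. probe sets. On one-round arrays in place of the two-round ones, 210 of the 265 (79.2%) met the whole rule, as did 320 of all Ag. probe sets (1.9%), and 55 did not. These comparisons use the same hemocyte and head arrays as the rule, so the counts are no independent support for it. At 8 probe sets the one-round mean was less than 1 above hemocytes or above heads on the log2 scale.

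Between the labellings themselves, with 2 rounds set against 1 round, 58 of the 265 (21.9%) were called higher and 11 (4.15%) lower after 2 rounds (limma, Benjamini-Hochberg adjusted p under 0.05 over all Ag. probe sets and a change of at least 2-fold). Of all Ag. probe sets, 7.29% were called higher and 2.61% lower. The 5028 bright ones, however, had 22.6% and 3.4%, close to the shares of the 265. The median difference was 0.54 on the log2 scale for the 265 and also 0.54 for the 5028, against 0.12 for all. Being picked as high on the two-round arrays tilts this comparison towards higher calls. The split rested on scaling, with 40 higher and 16 lower calls after median centring, which brought the median of all Ag. probe sets to 0.00363, and 18 higher and 27 lower after quantile normalization, where the median of the 265 was 0.14. Shares of other Ag. probe sets called under these scalings are not given here.

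**Figure D3:**
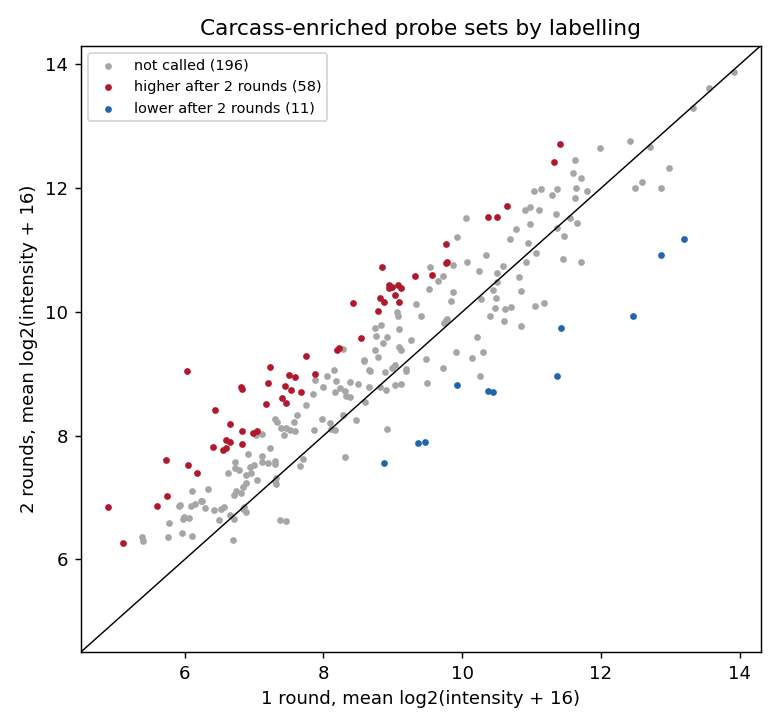
Each point is a carcass-enriched probe set, with its mean log2(intensity + 16) over 4 one-round carcass arrays (horizontal) and 4 two-round carcass arrays (vertical), and the line marks equal levels. The 58 called higher after 2 rounds (red) lie above the line and the 11 called lower (blue) below it.

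By mark, 5 of 15 UTR, 10 of 33 unmarked and 43 of 217 CDS probe sets among the 265 were called higher after 2 rounds (33.3%, 30.3% and 19.8%), and 1, 1 and 9 were called lower. The shares of higher calls were 23.3%, 19.9% and 4.56% among all Ag. probe sets of these marks and 30.7%, 41.8% and 16.3% among the 5028. For lower calls the shares were 6.67%, 3.03% and 4.15% of the 265. They were 2.15%, 2.9% and 2.59% among all Ag. probe sets of these marks and 1.71%, 2.19% and 4% among the 5028. The median difference was 0.56 for the UTR probe sets of the 265 and 0.53 for all UTR ones. The largest rise was at Ag.3R.46.1_at, with 926.5, 492.7, 273.9 and 554.4 units after 2 rounds against 64.99, 57.85, 49.87 and 31.42 after 1 round (3.01 ± 0.31 on the log2 scale, SE, with limma adjusted p = 7.9e-06). The groups did not overlap. Its one-round levels were close to those in hemocytes (25.8 to 74.25) and heads (19.33 to 36.36), so the enrichment of this probe set was seen in the two-round labelling and hardly in the other.

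Ag.3R.198.0_CDS_at followed with 766.2, 465.7, 40.23 and 625.1 units after 2 rounds against 114, 76.99, 13.43 and 142.4 after 1 round (log2 difference 1.98 ± 0.66, limma adjusted p = 0.0404). Replicate 3 was lowest in both labellings, and the groups overlapped there. Each two-round array lay above the one-round array with the same number, though the labels do not say whether these share a pool. With the replicate number as a block the call was kept. Its call was lost in 12 of the alternative settings, among them those without replicate 1, 2 or 4 of the two-round carcasses or without replicate 2 or 3 of the one-round ones, and the difference ran from 1.46 without one-round replicate 3 to 2.85 without two-round replicate 3. The largest fall was at Ag.2R.274.0_CDS_s_at, with 1194, 928.9, 680.9 and 1115 units after 2 rounds against 6534, 4353, 6149 and 5675 after 1 round (log2 difference -2.53 ± 0.24, limma adjusted p = 2.94e-06). No array overlapped between the labellings.

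In 4 cases a CDS and a UTR probe set of the same numbered part were both among the 265. The UTR one of Ag.2L.168.0 is Ag.2L.168.0_UTR_at, with 122.1, 444.3, 801.4 and 1192 units after 2 rounds against 2138, 1905, 3586 and 3222 after 1 round (log2 difference -2.40 ± 0.55, limma adjusted p = 0.00461). The difference was -1.78 without two-round carcass replicate 1, the lowest array, and the call was lost with a pseudocount of 1 (-2.45). The CDS one, Ag.2L.168.0_CDS_at, measured 11694, 12174, 12621 and 13756 units after 2 rounds and 10706, 11816, 13819 and 11903 after 1 round, with no call (0.06 ± 0.21, limma adjusted p = 0.891). The CDS values lie near the top of the scale, where differences may be compressed, so its missing call cannot be set against the fall of the UTR probe set.

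For the other 3 the UTR difference was above the CDS one. Ag.3R.169.0_CDS_s_at averaged 2313 ± 179 units after 2 rounds and 9427 ± 862 after 1 round (SD, n = 4 each; log2 difference -2.02 ± 0.26 SE, limma adjusted p = 5.31e-05). Its UTR partner Ag.3R.169.0_UTR_s_at averaged 3058 ± 326 and 2596 ± 265 units, with no call (0.235 ± 0.27, limma adjusted p = 0.624). Both carry the suffix s. Ag.2R.507.1_UTR_a_at was called higher after 2 rounds, at 1033 ± 247 against 428.4 ± 73.4 units (1.23 ± 0.22, limma adjusted p = 0.000907), a call lost with quantile normalization (0.69), while Ag.2R.507.1_CDS_a_at was not called, at 266.3 ± 82.8 and 272.9 ± 21.2 (-0.08 ± 0.23, limma adjusted p = 0.874). In the remaining pair, on arm 3L, neither was called, with differences of 0.83 for UTR and -0.65 for CDS (limma adjusted p = 0.486 and 0.258). The differences within a pair were not tested.

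In cluster 2L.32 the pair of probe sets with suffix a fell after 2 rounds, by 1.65 ± 0.23 at Ag.2L.32.0_CDS_a_at and by 1.74 ± 0.22 at Ag.2L.32.1_CDS_a_at (log2, limma adjusted p = 0.000102 and 4.7e-05). Ag.2L.32.0_CDS_s_at was not called, with a difference of -0.61 ± 0.26 (limma adjusted p = 0.116), but was called lower with quantile normalization (-1.002).

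Hemocytes and heads were never set against each other by the rule, though it capped the level in both. In that comparison hemocytes were called higher at 8 of the 265 (3.02%) and lower at 26 (9.81%) by limma with the same thresholds, against 11.1% and 9.3% of all Ag. probe sets. The count of 8 was 5 without head replicate 2. Among the 5028 bright probe sets the shares were 25.5% and 18.4%, both above those of the 265. The rule capped the level in both tissues, and 58 of the 265 were below background on all 8 arrays, so low shares of calls follow in part from how the probe sets were chosen. The median difference of hemocytes minus heads was -0.08 for the 265 and -0.00447 for all Ag. probe sets, and 0.07 and 0.15 after median centring. By mark, lower calls in hemocytes fell on 6 of 15 UTR, 19 of 217 CDS and 1 of 33 unmarked probe sets of the 265 (40%, 8.76% and 3.03%). The shares of lower calls among all Ag. probe sets of these marks were 20.6%, 7.9% and 14.6%, and among the 5028 they were 24.2%, 16.4% and 22.5%. With 15 UTR probe sets the share is imprecise, and it was not tested.

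Ag.3R.237.0_CDS_at showed the largest rise, with 558.8, 149.9, 765.8 and 372.1 units in hemocytes against 16.08, 20.22, 4.034 and 41.5 in heads (3.60 ± 0.71 on the log2 scale, SE, with limma adjusted p = 0.000715). All hemocyte arrays lay above all head arrays. In two-round carcasses it reached 1054, 2147, 7427 and 4317 units, with replicate 3 the highest, and in one-round carcasses 332, 646.1, 4101 and 1338, again with replicate 3 the highest. Ag.X.3.0_CDS_at measured 727.7, 521.9, 549.1 and 352.2 units in hemocytes against 203.6, 56.28, 54.08 and 15.76 in heads (2.80 ± 0.48, limma adjusted p = 0.00019), and its replicate 1 was the highest array in carcasses after 2 rounds (4617) as well as after 1 round (1425).

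The largest falls were at probe sets that heads also measured well. Ag.3R.644.0_CDS_a_at had 24.32, 39.39, 12.9 and 46.1 units in hemocytes against 146.9, 2801, 2783 and 2811 in heads (-4.95 ± 0.67 on the log2 scale, with limma adjusted p = 1.95e-05), and the difference was -5.975 without head replicate 1, the low array. In carcasses it lay near the top of the scale, at 10177 ± 1484 units after 2 rounds and 10265 ± 1106 after 1 round. Ag.2L.168.0_CDS_at measured 23.25, 27.48, 64.81 and 39.94 units in hemocytes against 1655, 1598, 1074 and 1872 in heads (-4.86 ± 0.21, limma adjusted p = 1.01e-10). Its UTR partner Ag.2L.168.0_UTR_at was by contrast below background on all hemocyte arrays (0.4872 to 2.341 units) and, in heads, measured 1.382, 1.407, 2.904 and 54.45, above background only on replicate 4.

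**Figure D4:**
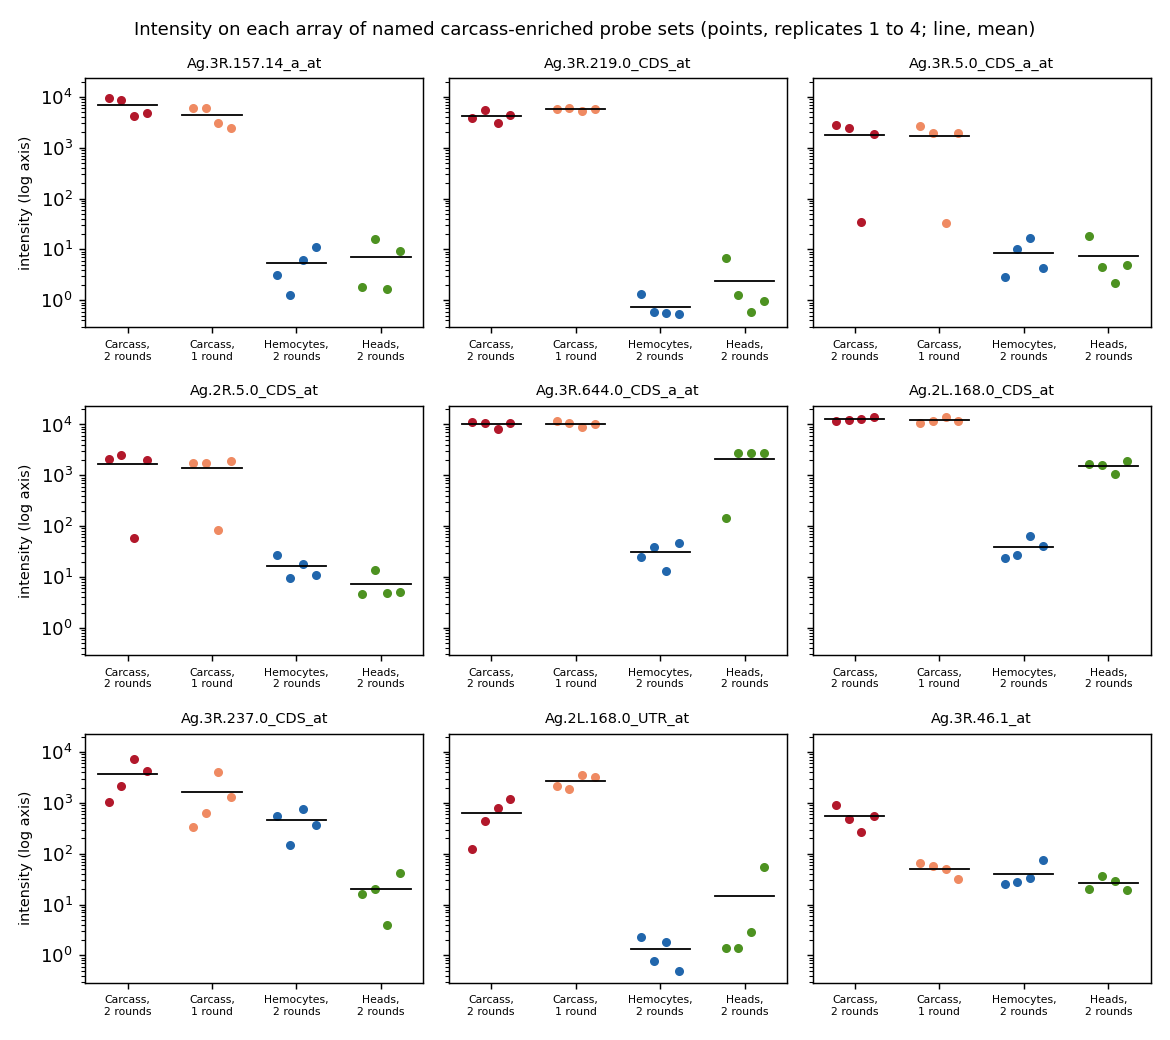
Intensity on a log axis of 9 carcass-enriched probe sets, with a point for each of 4 arrays per group (replicates 1 to 4 from left to right) and a line at the mean. Carcass replicate 3 drops to 34.95 and 33.5 units for Ag.3R.5.0_CDS_a_at in the 2 labellings, while hemocyte and head points of most panels lie far below the carcass points.

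The 265 varied more between carcass arrays than other probe sets did. Their range over the 4 two-round carcass arrays had a median of 1.085 on the log2 scale, against 0.58 for all Ag. probe sets and 0.54 for the 5028 bright ones, and over the one-round arrays 0.88 against 0.62 and 0.73. In the tissues where they were low, the median range was 0.62 over hemocyte arrays and 0.705 over head arrays, beside 0.60 and 0.62 for all. The narrowest ranges in two-round carcasses were at Ag.2R.958.0_CDS_at, with 91.31, 93.87, 93.13 and 92.68 units, and at Ag.3L.210.2_at, with 6437, 6865, 7106 and 6569.

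The widest ranges came from replicate 3. Ag.3R.5.0_CDS_a_at measured 2780, 2425, 34.95 and 1884 units on two-round carcass arrays 1 to 4 and 2707, 1953, 33.5 and 1989 on one-round arrays 1 to 4, against 2.831 to 16.6 in hemocytes and 2.202 to 18.65 in heads. Ag.2R.5.0_CDS_at measured 2052, 2521, 59.59 and 2044 after 2 rounds and 1730, 1778, 85.6 and 1903 after 1 round. Both were thus bright in carcass replicates 1, 2 and 4 and low, though above the other tissues, in replicate 3 of each labelling.

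The same was seen at other probe sets of the 265. At 34 of them (12.8%) replicate 3 lay at least 2-fold below the mean of the other 3 arrays in both labellings, against 0.545% of all Ag. probe sets and 1.61% of the 5028, while 10 (3.77%) lay at least 2-fold above in both, against 1.91% of the 5028. For replicates 1, 2 and 4 the counts of probe sets that lay lower in both labellings were 11, 2 and 3 (4.15%, 0.755% and 1.13%, against 1.17%, 0.298% and 0.577% of the 5028). Counts of those that lay higher were 12, 5 and 6 (4.53%, 1.89% and 2.26%, against 0.796%, 0.219% and 0.239% of the 5028). Each of these shares was thus above that of the 5028. At an 8-fold threshold 4 of the 265 were lower in replicate 3 in both labellings, namely the pair above, Ag.2R.13.0_CDS_at and Ag.2L.689.0_CDS_at, and 1 in replicate 4, Ag.3R.17.0_CDS_at. These last 3 were chosen after their values were seen. At the 8-fold threshold the counts over all Ag. probe sets, and likewise over the 5028, were 7 for replicate 3 and 1 for replicate 4. Ag.2R.13.0_CDS_at measured 476.6, 587.4, 25.75 and 444.8 units after 2 rounds and 449.4, 495, 35.55 and 460 after 1 round. Ag.3R.17.0_CDS_at measured 716.7, 1048, 540.4 and 59.1 after 2 rounds and 699.4, 1274, 884.2 and 47.28 after 1 round, so its low array was replicate 4.

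Across the 265, the deviations of a two-round and a one-round carcass array from their group means had correlations of 0.81 to 0.95 for arrays with the same number and of -0.74 to 0.28 for arrays with other numbers. Over all Ag. probe sets the same-number correlations were 0.21 to 0.48, and over the 5028 bright ones 0.57 to 0.86. These are descriptions across probe sets, which are not independent, and the 4 deviations of a group sum to 0. Between the head and hemocyte arrays, same-number correlations of the 265 were between -0.28 and 0.19. Without replicate 3 of both labellings, 79 of the 265 were called higher and 10 lower after 2 rounds, and all 58 higher calls made with it were among the 79. The shares of other Ag. probe sets called in that setting are not given here, so the rise is not a result about the 265 alone.

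**Figure D5:**
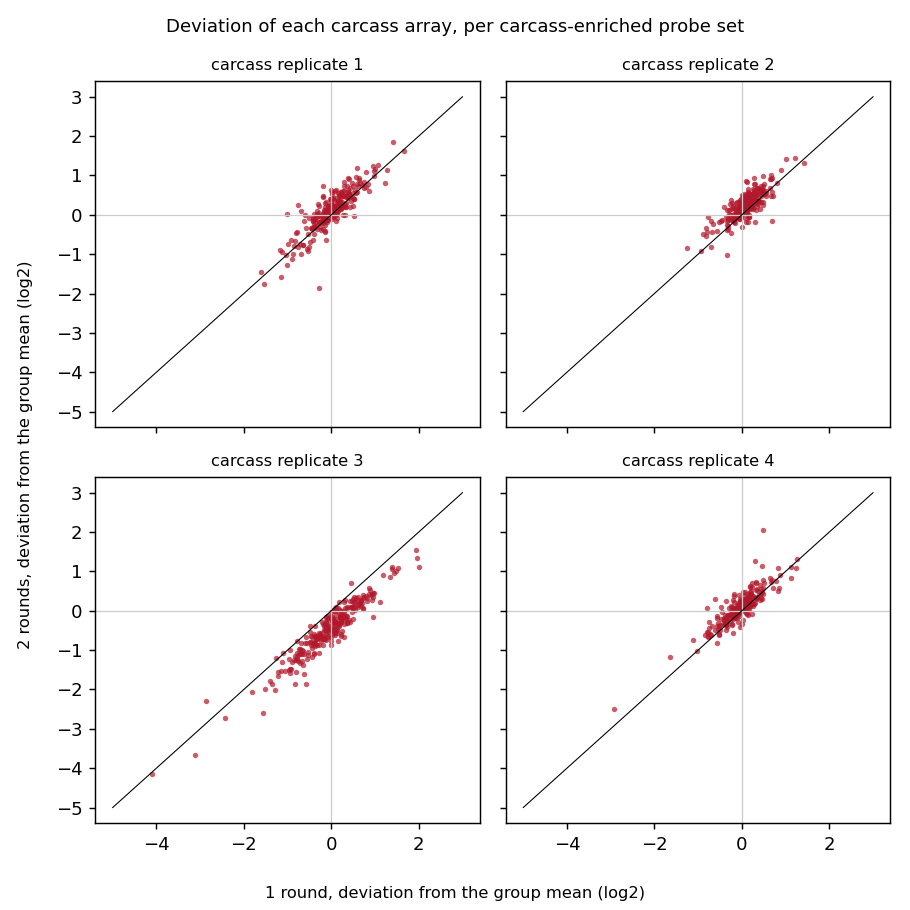
For each carcass replicate number, points show the 265 probe sets by their deviation from the group mean on the one-round array (horizontal) and the two-round array (vertical), in log2 units, with a line at equality. Points run along the line for each number, and replicate 3 has the longest tail downwards.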

How the data were processed

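The deposited values are linear intensities made by the authors with GCOS 1.4, per the submitters' processing notes. How probes were summarised, corrected and scaled is not given in the sources used here. From these intensities log2(intensity + 16) was computed with no further scaling, so differences of dim probe sets are understated. A linear model over the 4 groups (16 arrays, 12 residual degrees of freedom) was fitted by lmFit and eBayes of limma (version 3.58.1, under R 4.3.3) to all 16884 Ag. probe sets. Benjamini-Hochberg adjustment was made per comparison, and a call required both an adjusted p below 0.05 and at least a 2-fold change. On data simulated with 100 changes of 3-fold and 100 of 8-fold, 96% and 100% were recovered for 2 rounds over 1 round and 89% and 98% for hemocytes over heads, with 2 false calls each. These changes were added on the log2(intensity + 16) scale to randomly picked Ag. probe sets, with noise independent between arrays. The simulation therefore does not measure recovery of intensity changes at dim probe sets. Nor does it cover arrays that deviate together. Reading Ag. as mosquito and Pf. as parasite probe sets rests on the prefixes. A bound ("at least") divides geometric means, with values below background set to background. The number of arrays limits the precision. The model has no replicate block. Carcass arrays with the same number deviated together over all Ag. probe sets (every pair's correlation above 0.1), so a fit with the number as a block was run as an alternative. For heads and hemocytes this did not hold.

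Named probe sets were the extremes of each comparison, 2 per direction, those beside the rule's threshold, those with the widest and narrowest ranges, and clusters with 3 of the 265. CDS and UTR pairs were added after their values were seen. The probe sets and the rules were chosen with earlier results of these data known. Alternatives were other pseudocounts, scalings, filters and fits, and leaving out each array. Sequences were not analysed here.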

Additional observations from a re-analysis of the deposited data

Results flagged for a closer look

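Among the 22 probe sets named by rule, taken in each of 4 groups (88 groups of 4 arrays), 16 groups held an array set apart from the other 3, by a gap over range (log2 scale) that chance exceeds in about 1 of 20 groups. In carcasses the array apart was replicate 3 in each of 6 cases, of which 4 are at Ag.3R.5.0_CDS_a_at and Ag.2R.5.0_CDS_at, named for their wide range in two-round carcasses, so the chance rate does not apply to them. It was low after 2 rounds at Ag.3R.5.0_CDS_a_at (34.95 units), Ag.2R.5.0_CDS_at (59.59), Ag.3R.52.0_CDS_at (53.2) and Ag.3R.644.0_CDS_a_at (7982, against 10719 to 11261 on the others), and after 1 round at Ag.3R.5.0_CDS_a_at (33.5) and Ag.2R.5.0_CDS_at (85.6).

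In hemocytes Ag.3L.210.2_at was high on replicate 4 (183.2 units, against 102.9 to 110.9) and Ag.3R.52.0_CDS_at low on replicate 1 (8.754, below background). Also below background were the hemocyte values of Ag.3R.219.0_CDS_at on replicate 1 (1.312) and Ag.2L.32.0_CDS_a_at on replicate 4 (9.629). In heads Ag.3R.644.0_CDS_a_at was low on replicate 1 (146.9, against 2783 to 2811) and Ag.2L.168.0_UTR_at high on replicate 4 (54.45). The remaining 4 head values lay near or below background, at Ag.3R.219.0_CDS_at (6.917, replicate 1), Ag.2R.5.0_CDS_at (13.87, replicate 2), Ag.2L.32.0_CDS_a_at (5.045, replicate 4) and Ag.2L.32.1_CDS_a_at (6.067, replicate 4).

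Outside the Ag. probe sets, the same rule was met by 3 of the 1375 probe sets with neither an Ag. nor a Pf. ID, and by 0 of the 4502 Pf. ones. The brightest of the 3 measured 2954 ± 932 units in two-round carcasses (SD, n = 4), 2.863 ± 1.065 in hemocytes and 3.419 ± 0.42 in heads, and 4370 ± 1147 in one-round carcasses. The other 2 averaged 263.4 and 95.07 units in two-round carcasses, and 1.194 and 0.7707 in hemocytes, and 1.617 and 9.357 in heads.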

How the results depend on the processing

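The rule found between 185 (pseudocount of 64) and 361 (pseudocount of 1) probe sets, 264 after median centring and 265 after quantile normalization, of which 259 and 261 were among the 265, and 256 to 279 when an array was left out. With the 265 kept fixed, calls higher after 2 rounds than after 1 round numbered 35 with a pseudocount of 1 and 18 with quantile normalization, where lower calls numbered 27. Calls higher in hemocytes than in heads numbered 14 with a pseudocount of 1, 3 with one of 64 and 5 to 8 when an array was left out, and lower calls 44 and 15 with these pseudocounts. Below background on all 8 hemocyte and head arrays were 105 at the 99th percentile. The cause of these changes was not tested, beyond the change of setting itself. With the replicate block, which pairs the carcass arrays, 61 were called higher and 13 lower after 2 rounds, and 8 higher and 26 lower in hemocytes. In the 8 carcass arrays alone the counts were 48 and 10, and 63 and 14 with the block, which was chosen after seeing the data, as was leaving out replicate 3 of both labellings. Shares of all Ag. probe sets called are not given for the alternative settings, so these counts of calls describe the 265 without a comparison. Of 460 values of single named probe sets under an alternative, 445 kept their side of the threshold, 14 lost a call and 1 gained one. None that was called in either setting changed direction. Uncalled values could change sign, such as that of Ag.2L.168.0_CDS_at for 2 rounds minus 1 round (log2 difference 0.062, but -0.051 after median centring). Dim probe sets are limited by background, since 58 of the 265 had no signal above it in hemocytes and heads.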
